A study of Homo sapiens with 24 samples.

Results

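The genes described here encode the β-catenin destruction complex and its nearest regulators: the scaffold genes APC, APC2 and AXIN1, the kinase genes GSK3A, GSK3B and CSNK1A1, the ubiquitin ligase gene BTRC, and the Dishevelled genes DVL1, DVL2 and DVL3. Their probes were found through the RefSeq transcript that the array design names for each probe. All 10 genes were found, with 12 of the 50683 probes, and all 10 were among the 24648 genes tested.

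RNA was measured on single-colour Agilent expression arrays in HepaRG cells, a bipotent hepatic progenitor line derived from a hepatocellular carcinoma. There were 8 conditions with 3 arrays each, from independent cultures, 24 arrays in all. Without Wnt3a these were untransfected cells, cells electroporated with 80 pmol of a control siRNA, cells electroporated with 80 pmol of an siRNA against CTNNB1, the β-catenin gene, and untransfected cells given 300 ng/ml of FZD8_CRD, the soluble Wnt-binding domain of a Frizzled receptor, a group called FZ8CRD. The other 4 conditions had the same treatments with 200 ng/ml of Wnt3a. All cells were kept for 72 h in serum-free medium with albumin, and both recombinant proteins were of mouse sequence. The CTNNB1 knockdown used a single siRNA, and the control siRNA differed from untransfected cells by the siRNA together with its delivery.

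In the absence of Wnt, APC and AXIN1 hold β-catenin next to the kinases CK1α and GSK3, the kinases mark its amino terminus in turn, and β-TrCP, the product of BTRC, recognises the marked protein and hands it to the ubiquitin ligase for destruction. When Wnt binds Frizzled and LRP5 or LRP6, Dishevelled proteins polymerise at the membrane and draw AXIN1 and the kinases to the receptor, so that β-catenin escapes marking and can act with TCF and LEF factors in the nucleus. In the liver this pathway governs the zonation of hepatocytes, and it is a frequent target of mutation in hepatocellular carcinoma.

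Levels are given as log2 of the processed spot intensity after division by the 75th percentile of the array, so that 0 is the level of that percentile, and they are compared only within a probe. A change was called at an adjusted p under 0.05 in limma, two-sided and adjusted over all 24648 genes. The number of arrays limits the precision. Replicates 1, 2 and 3 lay on slides 1, 2 and 3, and each slide held all 8 conditions at the same places, so within-slide differences and fits with the slide as a block were also made. Condition and place on the slide therefore cannot be told apart, and the Wnt3a arrays shared a row on every slide. Replicate 3 of the FZ8CRD condition without Wnt3a had the largest spread: over the genes tested, its deviations from the mean of its condition had an SD of 0.34, against 0.18 to 0.31 for the others. It was picked by that rank, and untransfected with Wnt3a replicates 3 and 2 were close to it (0.31 each). Counts of called genes in comparisons with the FZ8CRD condition without Wnt3a are also given without its replicate 3, for the fit without the block. Leaving out the array of largest spread tends to lower the spread that the fit estimates, so calls gained without it are a description. List counts were not made without the other arrays.

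CTNNB1 was read by 2 probes. On A_23_P29495 the 3 arrays read 3.35, 3.37 and 3.51 after the control siRNA and 0.26, 0.35 and 0.52 after the CTNNB1 siRNA. With Wnt3a they read 3.39, 3.62 and 3.67 after the control siRNA and 0.33, 0.52 and 0.77 after the CTNNB1 siRNA. The 6 arrays of the CTNNB1 siRNA lay below all 18 others on both probes. CTNNB1 fell by 3.03 log2 units without Wnt3a (SE 0.17, limma adjusted p = 1.17e-09) and by 3.02 with it (SE 0.17, limma adjusted p = 7.76e-10), lower on 3 of 3 slides each time. On the second probe, A_33_P3421695, it fell by 3.53 and by 3.66. With all 24 arrays Wnt3a itself did not bring a called change of CTNNB1 in any of the 4 backgrounds, with changes of 0.02 to 0.23 on A_23_P29495. With spike-in scaling the change in untransfected cells was -0.37, or 0.003 relative to the median of all genes. With FZ8CRD, CTNNB1 was called higher on A_33_P3421695 in both media (0.32 each time, limma adjusted p = 0.0216 without and 0.0220 with Wnt3a), where 41.6% and 37.2% of the 31067 probes were called on their own. On A_23_P29495 the values were 0.20 (limma adjusted p = 0.378) and 0.41 (0.0667, block 0.00801). With spike-in scaling they were -0.19 and 0.32, or 0.27 and 0.48 relative to the median of all genes. Without Wnt3a the higher values rest on FZ8CRD replicate 3: without it A_33_P3421695 gave 0.20 and was not called (adjusted p = 0.137), and A_23_P29495 gave -0.070 (0.720). Without that array the change of CTNNB1 with Wnt3a in the presence of FZ8CRD was 0.50 on A_23_P29495 and was called (limma adjusted p = 0.0130, against 0.23 and 0.526 with it).

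**Figure D1:**
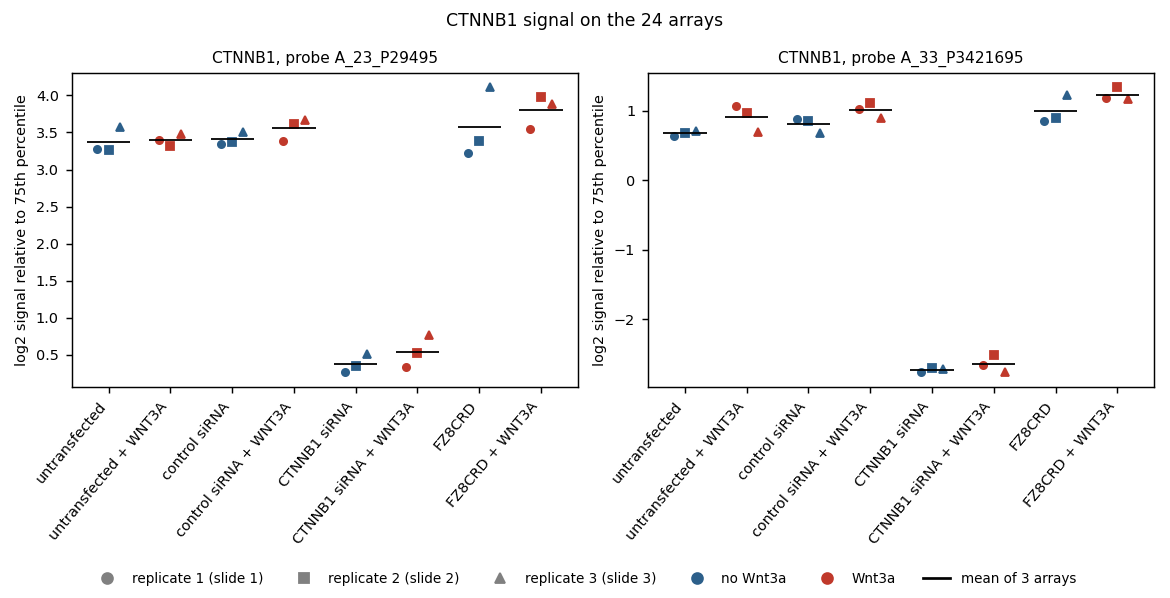
Log2 signal of the 2 CTNNB1 probes on the 24 arrays, scaled by the 75th percentile of its array, by condition. Points are arrays, with the marker giving the slide, and bars are means of 3 arrays. The 6 arrays of the CTNNB1 siRNA lie below the other 18 on both probes.

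Markers of the cell line were read on the same arrays. All 5 hepatocyte markers (ALB, TTR, APOA1, SERPINA1 and HNF4A) were well above background on all 24 arrays, as were 4 of 5 biliary and progenitor markers, 3 of 5 mesenchymal markers, 3 of 3 leukocyte markers and 3 of 3 endothelial markers. EPCAM, a marker of hepatic progenitors, was well above background on 1 array and THY1, a mesenchymal marker, on 0. Signal above background on an array does not by itself show that a cell type was present. The cultures were of the HepaRG line, so the leukocyte and endothelial lists are read as genes of that line. In RNA from whole cultures, fewer cells in a state such as the hepatocyte-like one and less RNA per cell cannot be told apart.

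Across the 8 conditions the 10 genes moved little. All 12 probes were well above background on all 24 arrays. The range of the 8 condition means was 1.64-fold for APC2, 1.52-fold for AXIN1, 1.52-fold for APC, 1.32-fold for DVL2, 1.28-fold for CSNK1A1, 1.24-fold for DVL3, 1.23-fold for BTRC, 1.19-fold for DVL1, 1.17-fold for GSK3B and 1.12-fold for GSK3A. The median range of the 10 genes was 1.26-fold, beside 1.52-fold over all genes tested and 2.68-fold over 9 genes known as β-catenin targets.

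Of the 120 pairs of gene and comparison, 10 were called, and they involved 6 of the 10 genes. Wnt3a brought 0 called changes among the 10 genes in untransfected cells, where 5.6% of all genes tested were called, 0 after the control siRNA (2.11% of all genes), 0 after the CTNNB1 siRNA (0.0406%) and 0 with FZ8CRD (8.29%). In limma at an unadjusted p under 0.05 these counts were 2, 1, 0 and 1, beside 21.2%, 14%, 10.4% and 20.5% of all genes. The count with FZ8CRD changed without its replicate 3, the array of largest spread. Without that array AXIN1 was called lower with Wnt3a in the presence of FZ8CRD (-0.31, limma adjusted p = 0.0438, against -0.20 and 0.319 with it), and 19.9% of all genes were called. The control siRNA against untransfected cells gave 1 called gene of 10 without Wnt3a (22.3% of all genes) and 1 with Wnt3a (9.04%). The CTNNB1 siRNA against the control siRNA gave 1 without Wnt3a (10.6%) and 2 with Wnt3a (10.6%). FZ8CRD against untransfected cells gave 2 without Wnt3a (41.9%) and 3 with Wnt3a (37.2%), and without FZ8CRD replicate 3 the first of these was 4 (40.6%). At an unadjusted p under 0.05 in limma these 6 counts, without and then with Wnt3a, were 2 and 3 for the control siRNA (33.2% and 22.9% of all genes), 3 and 2 for the CTNNB1 siRNA (22.7% and 21.9%) and 2 and 3 for FZ8CRD (48.9% and 45.2%). The difference of the Wnt3a response between the siRNAs gave 0 (0.0162%), and that between FZ8CRD and untransfected cells gave 0 (0.073%), with 0 and 0 at an unadjusted p under 0.05 in limma (3.33% and 12.7% of all genes). The zeros for Wnt3a did not all hold with the slide as a block, which called CSNK1A1 and DVL3 in untransfected cells and APC2 with FZ8CRD. The block called 18 of the 120 pairs, all 10 among them, and the calls among all genes rose too, for example from 1381 to 2823 for Wnt3a in untransfected cells and from 10322 to 13147 for FZ8CRD without Wnt3a. Of the 10 calls, 9 were lost without some single array and 10 without some slide, and the rule of an unadjusted p under 0.01 with a fold above 1.5 or below 0.7 kept only that of APC with FZ8CRD and Wnt3a.

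**Figure D2:**
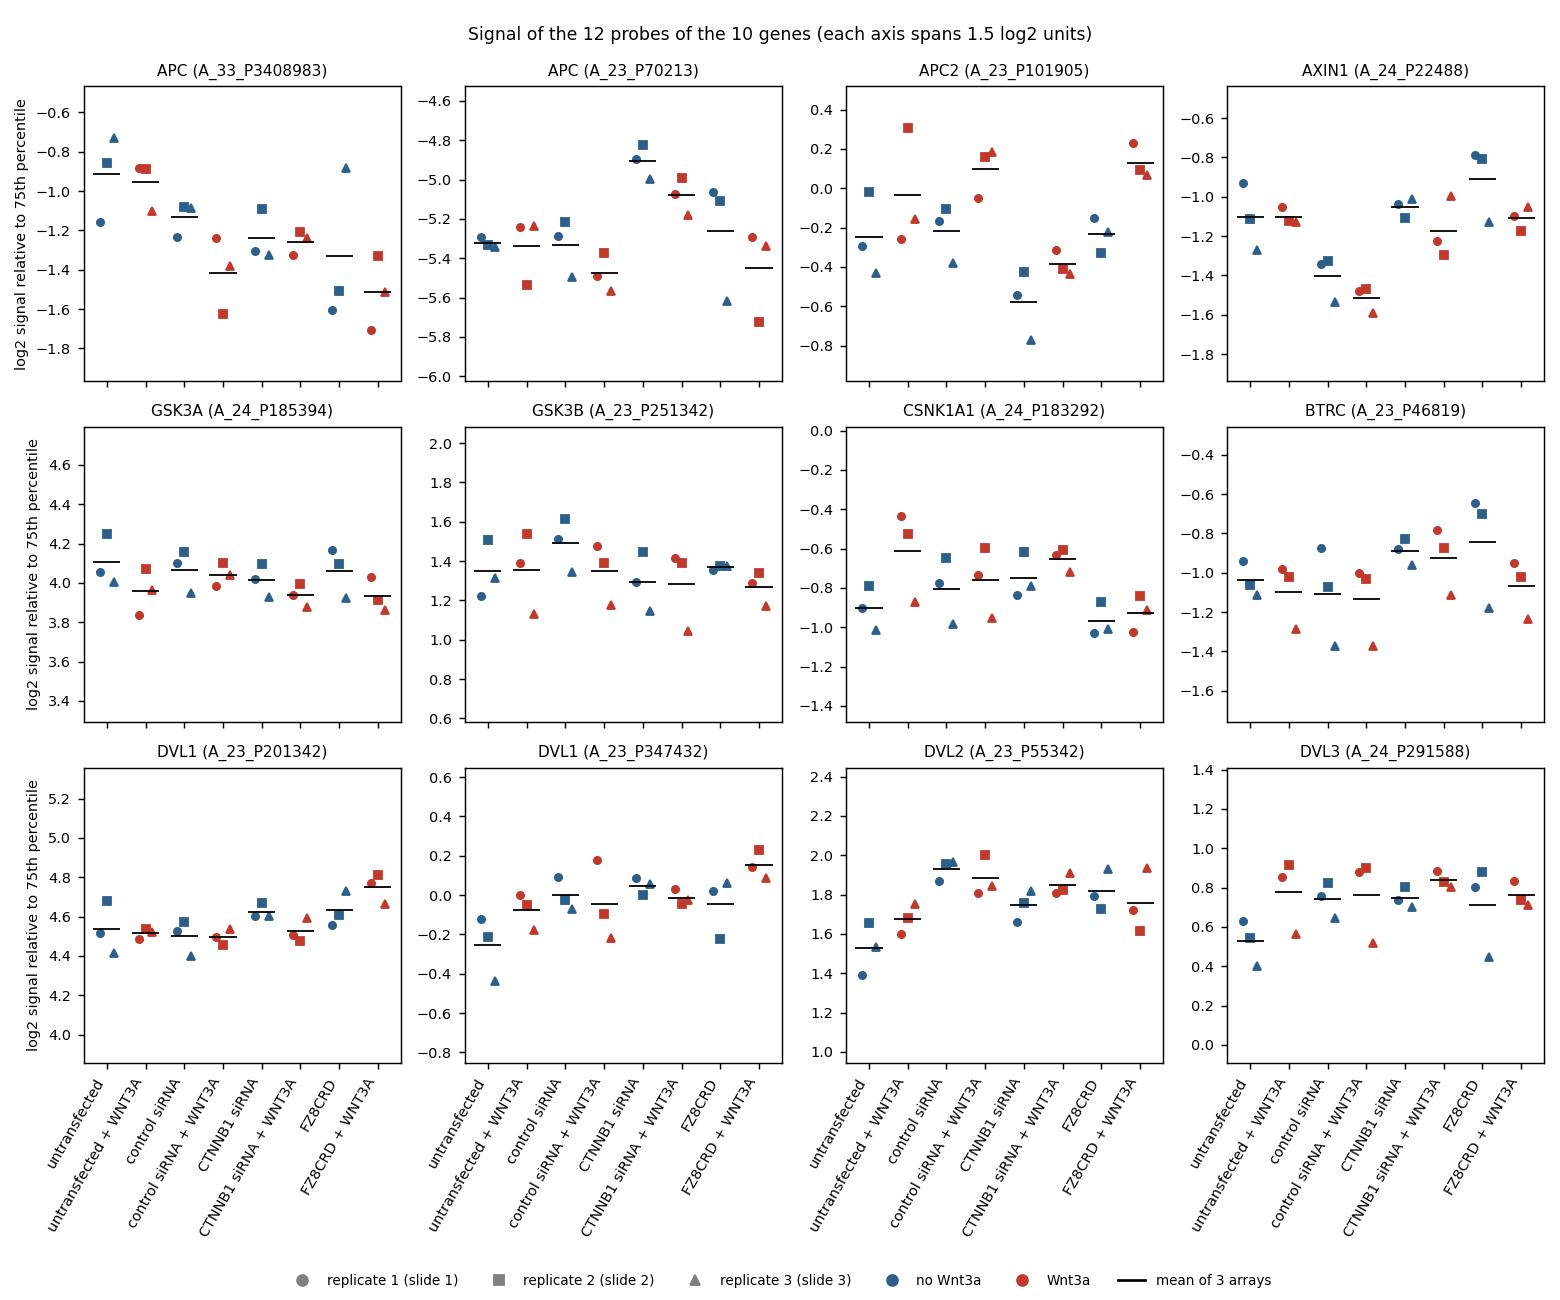
Log2 signal of the 12 probes of the 10 genes on the 24 arrays, scaled by the 75th percentile of its array, by condition. Every vertical axis spans the same number of log2 units, points are arrays with the marker giving the slide, and bars are means of 3 arrays. The AXIN1 arrays of the control siRNA sit lowest in their panel and the mean of the APC2 arrays of the CTNNB1 siRNA without Wnt3a is the lowest in theirs.

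AXIN1, the scaffold whose amount limits the complex in many cells, was read by A_24_P22488. In untransfected cells its 3 arrays read -0.93, -1.11 and -1.27, and with Wnt3a -1.05, -1.12 and -1.13. After the control siRNA they read -1.34, -1.33 and -1.54, and with Wnt3a -1.48, -1.47 and -1.59. After the CTNNB1 siRNA they read -1.04, -1.11 and -1.01, and with Wnt3a -1.22, -1.29 and -0.996. The 6 arrays of the control siRNA were the 6 lowest of these 18, and they overlapped with no array of the other siRNA or of untransfected cells. With FZ8CRD the arrays read -0.79, -0.81 and -1.13, and with FZ8CRD and Wnt3a -1.10, -1.17 and -1.05. In the order of the 8 condition means, from control siRNA with Wnt3a (-1.51) and control siRNA (-1.40) at the low end to FZ8CRD (-0.91) at the high end, only the step from control siRNA to CTNNB1 siRNA with Wnt3a separated neighbours whose arrays did not overlap.

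AXIN1 rose after the CTNNB1 siRNA against the control siRNA by 0.35 without Wnt3a (1.28-fold, SE 0.11, limma adjusted p = 0.0405) and by 0.34 with Wnt3a (1.27-fold, SE 0.11, limma adjusted p = 0.0461). The within-slide differences were 0.31, 0.22 and 0.53 without Wnt3a and 0.25, 0.18 and 0.59 with it, and the block gave adjusted p = 0.0210 and 0.0248. Against untransfected cells the control siRNA lowered AXIN1 with Wnt3a, where it fell by 0.41 (0.752 of the untransfected level, SE 0.11, limma adjusted p = 0.0209, block adjusted p = 0.0103), lower on 3 of 3 slides. Without Wnt3a the same difference was -0.30 (95% interval -0.52 to -0.08, adjusted p = 0.0505) and it was called with the block (adjusted p = 0.0280). These comparisons share the arrays of the control siRNA, so the higher value in one and the lower value in the other rest in part on the same readings. The mean was -1.10 in untransfected cells, -1.40 after the control siRNA and -1.05 after the CTNNB1 siRNA without Wnt3a, and -1.10, -1.51 and -1.17 with it.

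The AXIN1 calls lay close to the threshold. The call after the CTNNB1 siRNA without Wnt3a was lost without any 1 of its 6 arrays (adjusted p 0.0619 to 0.168), that with Wnt3a without any array but CTNNB1 siRNA with Wnt3a replicate 2 (0.0685 to 0.227), both with normexp background correction or spike-in scaling, and the latter also in a fit of only the arrays compared. With spike-in scaling the 2 values were 0.44 and 0.14, or 0.38 and 0.35 relative to the median of all genes. The call after the control siRNA with Wnt3a was lost without untransfected with Wnt3a replicate 1, or without control siRNA with Wnt3a replicate 2 or 3 (adjusted p 0.0734 to 0.111), with spike-in scaling (-0.14, or -0.39 relative to the median) and in a fit of only the arrays compared.

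APC2, the paralog of APC that is most abundant in neural tissue, was read by A_23_P101905. After the control siRNA its arrays read -0.17, -0.11 and -0.38, and after the CTNNB1 siRNA -0.54, -0.43 and -0.77. With Wnt3a they read -0.05, 0.16 and 0.19 after the control siRNA and -0.32, -0.41 and -0.43 after the CTNNB1 siRNA. The 2 siRNAs did not overlap in either medium. Untransfected cells read -0.29, -0.02 and -0.43, and -0.26, 0.31 and -0.16 with Wnt3a, while FZ8CRD gave -0.15, -0.33 and -0.22, and 0.23, 0.09 and 0.07 with Wnt3a. The 2 conditions with the CTNNB1 siRNA had the lowest means of the 8 (-0.58 and -0.39) and the control siRNA and FZ8CRD with Wnt3a the highest (0.10 and 0.13), and no neighbours in that order were free of overlap.

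With Wnt3a, APC2 fell after the CTNNB1 siRNA by 0.49 (0.714 of the control siRNA level, SE 0.13, limma adjusted p = 0.0218, block adjusted p = 0.00831), with within-slide differences of -0.27, -0.57 and -0.62. Without Wnt3a the difference was -0.36 (95% interval -0.64 to -0.09, adjusted p = 0.0915), with -0.38, -0.32 and -0.39 on the slides, and it was called with the block (adjusted p = 0.0419). The difference between these 2 changes was -0.12 (95% interval -0.52 to 0.27, limma adjusted p = 1). The call was lost without replicate 2 or 3 of either siRNA with Wnt3a (adjusted p 0.0741 to 0.0857) and with spike-in scaling, where the value was -0.69 (-0.48 relative to the median of all genes, adjusted p = 0.341).

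Wnt3a gave APC2 values above 0 in all 4 backgrounds: 0.21 in untransfected cells, 0.32 after the control siRNA, 0.19 after the CTNNB1 siRNA and 0.36 with FZ8CRD, higher on 3 of 3 slides each time. With spike-in scaling the value in untransfected cells was -0.18, or 0.19 relative to the median of all genes. None of the 4 was called, with adjusted p from 0.104 to 0.691, and the value with FZ8CRD was called with the block (adjusted p = 0.0484).

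The DNA just before the start of AXIN1 and APC2 is shown because these were the genes called after the CTNNB1 siRNA. The 250 bases come from RefSeq on GRCh38.p14, read 5′ to 3′ on the strand of the gene, and stop before the first transcribed base. They were searched on both strands for the core words of TCF and LEF sites, CTTTGAT and CTTTGTT. After the sequences had been seen, they were also searched for the GC box GGGCGG, which is shown in capitals. Its reverse complement is CCGCCC.
AXIN1, chr16:352724-352973, minus strand: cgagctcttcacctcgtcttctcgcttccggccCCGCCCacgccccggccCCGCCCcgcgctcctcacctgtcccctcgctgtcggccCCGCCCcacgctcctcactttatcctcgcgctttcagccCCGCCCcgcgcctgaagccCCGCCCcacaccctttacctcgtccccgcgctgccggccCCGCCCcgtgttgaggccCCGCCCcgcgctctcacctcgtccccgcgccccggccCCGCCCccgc
APC2, first start, chr19:1449871-1450120, plus strand: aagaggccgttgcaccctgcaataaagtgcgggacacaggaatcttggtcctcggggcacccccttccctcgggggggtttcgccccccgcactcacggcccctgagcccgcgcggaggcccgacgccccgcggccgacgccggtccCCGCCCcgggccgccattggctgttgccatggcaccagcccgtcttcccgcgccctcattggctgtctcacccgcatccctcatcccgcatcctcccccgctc
APC2, second start, chr19:1452734-1452983, plus strand: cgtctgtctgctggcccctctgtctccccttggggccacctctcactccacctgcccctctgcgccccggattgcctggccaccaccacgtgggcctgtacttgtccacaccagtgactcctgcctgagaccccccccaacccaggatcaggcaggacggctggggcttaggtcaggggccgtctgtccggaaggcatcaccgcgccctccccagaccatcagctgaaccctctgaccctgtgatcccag

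The AXIN1 window held 8 GC boxes in a repeated pattern and was 77.6% G and C. The windows of APC2 were 72.0% and 66.8% G and C and held 1 and 0 GC boxes. Of 35116 windows of this length, 42.6% held a GC box, 2.26% held CTTTGAT, 4.5% held CTTTGTT and 6.6% held either core. Windows were found for 9 of the 10 genes, 12 in all. A GC box was in 9 of them and a TCF or LEF core in 0 of them, which says only that these letters are not in these windows.

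APC, the large scaffold whose loss stabilises β-catenin, was read by 2 probes that did not move together. On the brighter probe, A_33_P3408983, untransfected cells read -1.16, -0.86 and -0.73 and FZ8CRD -1.60, -1.51 and -0.88. With Wnt3a, untransfected cells read -0.88, -0.89 and -1.10 and FZ8CRD -1.71, -1.33 and -1.51. The groups overlapped without Wnt3a, because of replicate 3 of FZ8CRD, and did not overlap with it. The siRNA conditions read -1.23 to -1.08 after the control siRNA, -1.33 to -1.09 after the CTNNB1 siRNA, and -1.63 to -1.24 and -1.32 to -1.21 with Wnt3a, and all neighbours overlapped in the order of the 8 means, from FZ8CRD with Wnt3a (-1.52) up to untransfected (-0.91).

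APC fell with FZ8CRD by 0.42 without Wnt3a (0.748 of the untransfected level, SE 0.16, limma adjusted p = 0.0400, block adjusted p = 0.0264) and by 0.56 with Wnt3a (0.678 of it, SE 0.16, limma adjusted p = 0.00875, block adjusted p = 0.00535). The within-slide differences were -0.45, -0.65 and -0.15, and -0.82, -0.44 and -0.41. Leaving out FZ8CRD replicate 3 gave -0.64 (adjusted p = 0.00107) for the first of these. That call was lost without FZ8CRD replicate 1 or 2 or untransfected replicate 2 or 3 (limma adjusted p 0.0990 to 0.195). It was also lost with quantile normalisation, the deposited value table, no filter on dim probes, the mean of both APC probes or only the arrays compared. The call with Wnt3a was lost without FZ8CRD with Wnt3a replicate 1 (limma adjusted p = 0.0519) and with spike-in scaling. Over the alternatives and omissions tried, the change ran from -0.81 to -0.18 without Wnt3a and from -0.65 to -0.34 with it.

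The dim APC probe, A_23_P70213, had a median intensity of 20.4 over 10 spots per array, beside 328 for A_33_P3408983. It did not show the difference with FZ8CRD, with values of 0.06 and -0.11. After the control siRNA it read -5.29, -5.21 and -5.50 and after the CTNNB1 siRNA -4.89, -4.83 and -5.00, without overlap. With Wnt3a it read -5.49, -5.37 and -5.57 and -5.07, -4.99 and -5.18, again without overlap. These differences of 0.43 and 0.40 were not called (adjusted p = 0.134 and 0.177) in limma on each probe on its own, where 10% and 9.91% of 31067 probes were called. On the brighter probe the same comparisons gave -0.11 and 0.16. The array design names a different APC transcript for each probe. Whether the probes read different transcripts, and which of them represents the gene, was not tested. With the block the brighter probe was also called lower after the control siRNA with Wnt3a (-0.46, block adjusted p = 0.0476, 0.0761 without it).

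Among the kinases, GSK3A and GSK3B, the paralogs that mark β-catenin for recognition, were not called in any of the 12 comparisons. GSK3A read 3.84 to 4.25 on the 24 arrays and GSK3B 1.05 to 1.62. Their 8 condition means overlapped at every step, from FZ8CRD with Wnt3a at the low end for both (3.94 and 1.27) to untransfected cells for GSK3A (4.10) and the control siRNA for GSK3B (1.49). After the CTNNB1 siRNA the changes of GSK3A were -0.05 (95% interval -0.22 to 0.12) and -0.10 (-0.28 to 0.07) without and with Wnt3a. With spike-in scaling that without Wnt3a was 0.038, or -0.018 relative to the median of all genes. The changes of GSK3B were -0.20 (-0.44 to 0.05) and -0.06 (-0.31 to 0.18).

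CSNK1A1 encodes CK1α, the kinase that places the priming mark on β-catenin. With Wnt3a its arrays read -0.44, -0.53 and -0.87 in untransfected cells and -1.02, -0.84 and -0.91 with FZ8CRD. Without Wnt3a they read -0.90, -0.79 and -1.01, and -1.03, -0.87 and -1.01. The siRNA conditions lay between -0.98 and -0.60. The Wnt3a-treated groups overlapped through replicate 3 of the untransfected cells, and neighbours overlapped throughout the order of the 8 means, from FZ8CRD (-0.97) to untransfected with Wnt3a (-0.61).

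With Wnt3a, CSNK1A1 fell with FZ8CRD by 0.31 (0.805 of the untransfected level, SE 0.12, limma adjusted p = 0.0428, block adjusted p = 0.00486), with within-slide differences of -0.59, -0.31 and -0.04. Without Wnt3a the value was -0.07 (95% interval -0.32 to 0.18), and the difference between the 2 was -0.24 (95% interval -0.59 to 0.11, limma adjusted p = 0.622). Wnt3a gave 0.29 in untransfected cells (95% interval 0.04 to 0.54, limma adjusted p = 0.157), called only with the block (0.0330). With spike-in scaling it was -0.11, or 0.27 relative to the median of all genes. This value and the fall with FZ8CRD share the untransfected arrays with Wnt3a. The call was lost without any array of the comparison but untransfected with Wnt3a replicate 3 (adjusted p 0.0508 to 0.210), with quantile normalisation, normexp, the deposited value table, no filter on dim probes, spike-in scaling or only the arrays compared.

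BTRC, the substrate receptor that recognises marked β-catenin, was not called in any comparison. Its 24 values ran from -1.37 to -0.64, and its means from the control siRNA with Wnt3a (-1.14) to FZ8CRD (-0.84) overlapped at every step. Slide 3 held the lowest array of each of the 8 conditions. The CTNNB1 siRNA gave 0.22 (95% interval -0.10 to 0.53) and 0.21 (-0.10 to 0.52) without and with Wnt3a. FZ8CRD without Wnt3a gave 0.20 (-0.12 to 0.51), called with the block (adjusted p = 0.0447) on within-slide differences of 0.30, 0.36 and -0.06. With spike-in scaling this value was -0.19, or 0.27 relative to the median of all genes. Without FZ8CRD replicate 3 it was 0.37 (limma adjusted p = 0.0541).

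DVL1, a Dishevelled gene, was read by 2 probes. On A_23_P201342 the arrays with Wnt3a read 4.49, 4.54 and 4.52 in untransfected cells and 4.77, 4.81 and 4.67 with FZ8CRD, without overlap. Without Wnt3a they read 4.52, 4.68 and 4.41 in untransfected cells and 4.56, 4.61 and 4.73 with FZ8CRD, with overlap, and the siRNA conditions lay at 4.67 or below. With Wnt3a, DVL1 rose with FZ8CRD by 0.23 (1.17-fold, SE 0.07, limma adjusted p = 0.0101, block adjusted p = 0.00656), with 0.28, 0.27 and 0.14 on the slides. Without Wnt3a the value was 0.10 (95% interval -0.04 to 0.24), and with spike-in scaling -0.29, or 0.17 relative to the median of all genes. The call was lost without FZ8CRD with Wnt3a replicate 2 (limma adjusted p = 0.0519), with the deposited value table and with spike-in scaling (0.15, or 0.30 relative to the median). The second probe, A_23_P347432, of the same transcript, gave 0.23 in that comparison with an adjusted p of 0.0845.

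DVL2, read by A_23_P55342, was the Dishevelled gene with the widest range. Untransfected cells read 1.39, 1.65 and 1.53 and cells with the control siRNA 1.87, 1.96 and 1.97. The CTNNB1 siRNA gave 1.66, 1.76 and 1.82 and FZ8CRD 1.79, 1.73 and 1.93. With Wnt3a the same 4 treatments read 1.60, 1.68 and 1.75, then 1.81, 2.00 and 1.84, then 1.81, 1.82 and 1.91, and for FZ8CRD 1.72, 1.61 and 1.93. Untransfected cells had the lowest mean in both media, and the control siRNA arrays overlapped with theirs in neither. Neighbours overlapped throughout the order of the 8 means, from untransfected (1.53) to the control siRNA (1.93).

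Without Wnt3a, DVL2 rose after the control siRNA by 0.40 (1.32-fold, SE 0.09, limma adjusted p = 0.00207, block adjusted p = 0.000420), with 0.48, 0.30 and 0.43 on the slides. With Wnt3a the difference was 0.21 (95% interval 0.03 to 0.39, adjusted p = 0.144). The call held without each of its 6 arrays (adjusted p 0.00255 to 0.0197), but was lost without slide 1 (0.115) and with spike-in scaling, under which the difference was 0.12 and the median of all genes -0.31. FZ8CRD against untransfected cells without Wnt3a gave a rise of 0.29 (1.22-fold, SE 0.09, limma adjusted p = 0.00938, block adjusted p = 0.00211), with 0.40, 0.08 and 0.40 on the slides, that turned to -0.10 with spike-in scaling, where the median of all genes was -0.46. Relative to those medians the 2 differences were 0.43 and 0.36. The FZ8CRD call was lost without untransfected replicate 1 (adjusted p = 0.0642), with quantile normalisation and with only the arrays compared, and was 0.24 (adjusted p = 0.0474) without FZ8CRD replicate 3. Both comparisons use the same untransfected arrays.

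DVL3 was not called in any comparison. Its arrays ran from 0.40 to 0.91 and its means from 0.53 in untransfected cells to 0.84 after the CTNNB1 siRNA with Wnt3a, with overlap at every step. Wnt3a gave 0.25 in untransfected cells (95% interval 0.01 to 0.49, limma adjusted p = 0.211, block 0.0405) and the control siRNA 0.22 without Wnt3a (95% interval -0.02 to 0.46, limma adjusted p = 0.204, block 0.0375). With spike-in scaling these were -0.14 and -0.068, or 0.23 and 0.25 relative to the medians of all genes. Without FZ8CRD replicate 3, FZ8CRD gave DVL3 a value of 0.32 without Wnt3a (adjusted p = 0.0292, 0.18 and 0.216 with it) and AXIN1 0.31 (adjusted p = 0.0251, 0.20 and 0.152 with it). With spike-in scaling of all 24 arrays these 2 values were -0.21 for DVL3 and -0.19 for AXIN1, where the median of all genes was -0.46. Relative to that median they were 0.26 and 0.27.

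**Figure D3:**
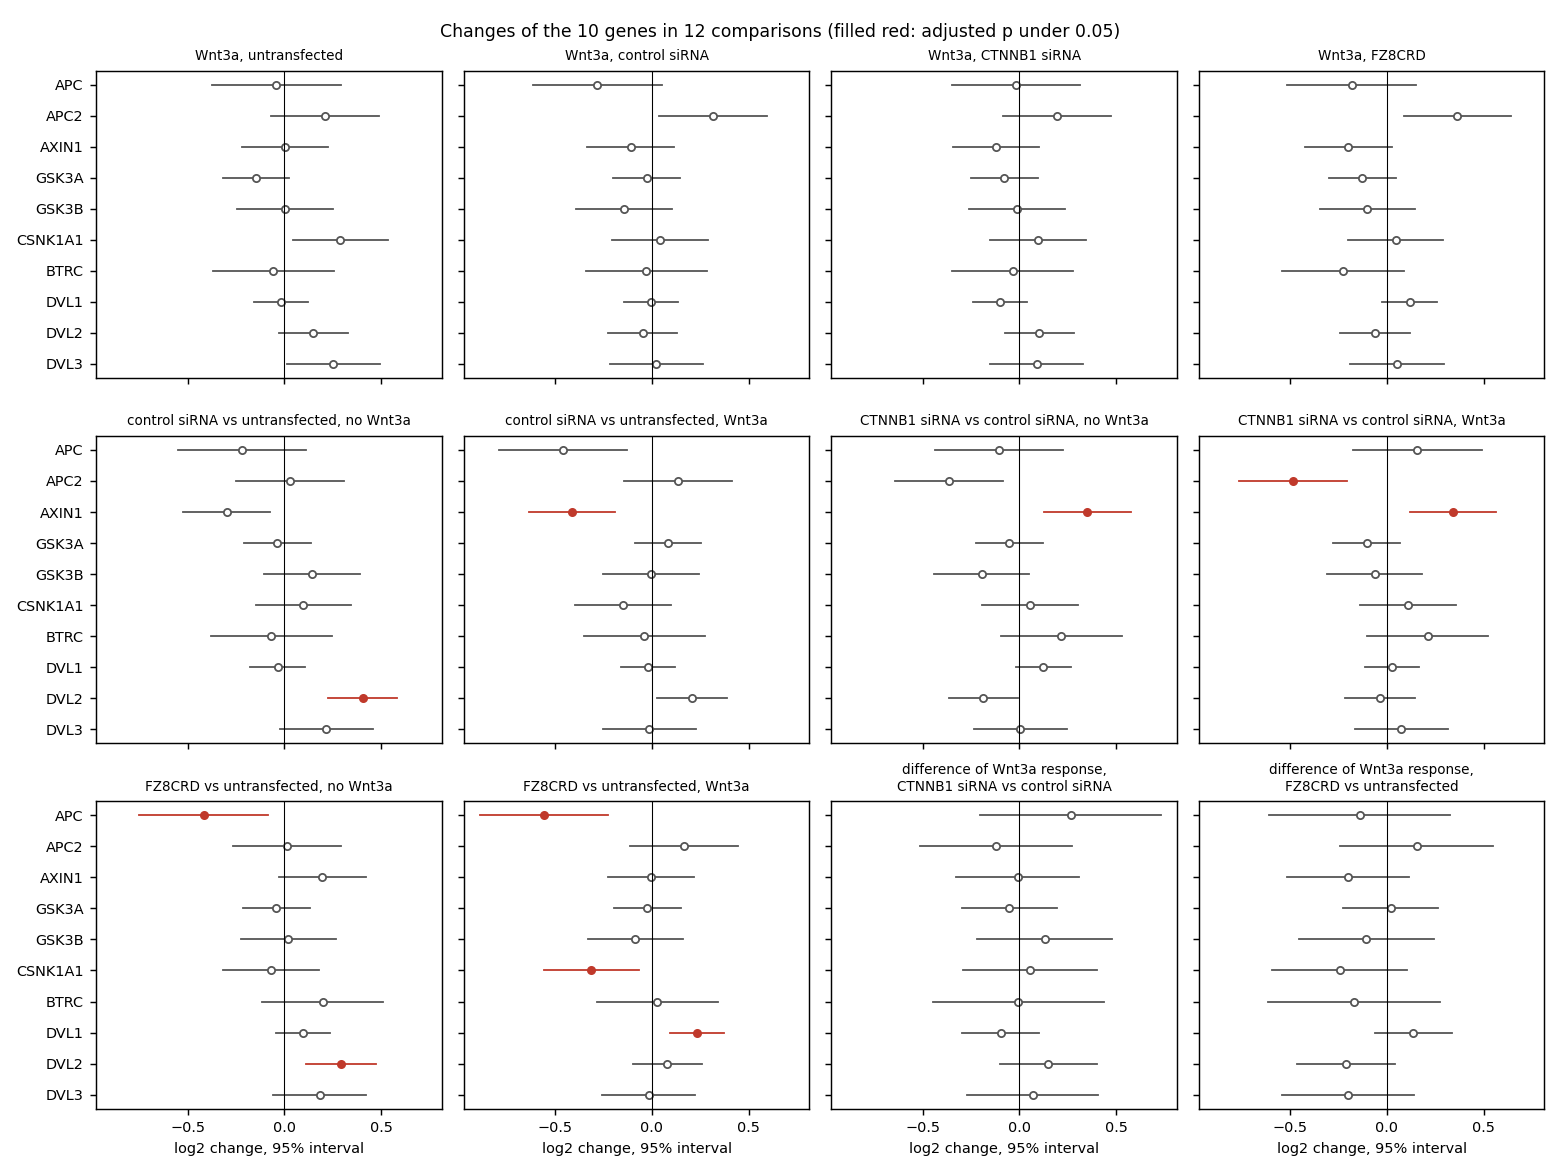
Log2 change of the 10 genes in the 12 comparisons, with 95% intervals from the fit of all 24 arrays. Filled red points are changes with an adjusted p under 0.05 and open points are the rest. The 10 called points lie in 6 of the 12 panels, and the 4 panels of Wnt3a and the 2 of the difference of its response hold none.

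Wnt3a was given to follow the genes that change as hepatic progenitors take on a myofibroblast-like state. The lists beside the 10 genes were 10 scaffold and kinase partners, 9 subunits of the phosphatase PP2A, 9 ubiquitin ligase and tankyrase genes, 12 of 13 Dishevelled regulators and co-receptors, and 9 of 11 β-catenin targets that passed the filter on dim probes. AXIN2 and NKD1 are each in 2 of these lists. In untransfected cells, where 5.6% of all genes were called, Wnt3a raised 2, 0, 1, 4 and 4 genes of these lists in that order and lowered 0 of each, with median changes of 0.11, 0.07, -0.04, 0.21 and 0.30 beside 0.01 over all genes and 0.00 over the 10 genes of the complex. With spike-in scaling both raised partners, AXIN2 (-0.029) and CSNK1G3 (-0.12), and the raised ligase gene, CUL1 (-0.039), turned, where the median of all genes was -0.38. After the control siRNA (2.11% of all genes) it raised 1, 0, 0, 2 and 4 and lowered 0 (medians -0.01, -0.02, 0.08, 0.13 and 0.60, all genes 0.02, the 10 genes -0.03). After the CTNNB1 siRNA (0.0406%) it changed 0 genes of each list in limma, with 3, 1, 2, 1 and 1 at an unadjusted p under 0.05, where 10.4% of all genes lay, and medians of 0.00 to 0.05. NKD1 lay at the floor on all arrays of this comparison, and without it the target median was 0.00971 and not 0.00. With FZ8CRD (8.29%) it raised 0, 0, 1, 2 and 2 and lowered 0, 0, 0, 0 and 2 (medians -0.01, -0.05, 0.08, 0.01 and 0.02, all genes 0.02, the 10 genes -0.08). For the phosphatase list the counts at an unadjusted p under 0.05 were 2, 1, 1 and 2 in the 4 backgrounds (21.2%, 14%, 10.4% and 20.5% of all genes), with 2 for the ligase list after the control siRNA and 2 for the partners with FZ8CRD. Without FZ8CRD replicate 3 (19.9%) Wnt3a with FZ8CRD raised 0, 0, 1, 3 and 2 and lowered 2, 2, 0, 2 and 2. The list medians were then -0.012, -0.091, 0.025, -0.064 and 0.002, so that of the Dishevelled list turned.

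The targets that rose with Wnt3a in untransfected cells included TCF7 (1.68, SE 0.25) and LEF1 (1.12, SE 0.15), which encode the nuclear partners of β-catenin, and RNF43 (0.73, SE 0.10), a ligase that removes Frizzled receptors. All were higher on 3 of 3 slides and in limma had adjusted p = 0.00109, 0.000392 and 0.000540. No single array ended these calls, while a fit of only the arrays compared ended all of them, and spike-in scaling those of LEF1 and RNF43. Of the 22 alternatives and omissions tried, including those of slides, 3 ended the call of TCF7, 3 that of RNF43 and 4 that of LEF1. RNF43 also rose after the control siRNA (1.02, SE 0.10, adjusted p = 9.77e-05) and gave -0.21 after the CTNNB1 siRNA. The difference of these responses was -1.23 (SE 0.14, limma adjusted p = 0.00130), and with all 24 arrays and no block no other gene of the lists was called in a difference of the Wnt3a response. That does not hold without FZ8CRD replicate 3, where the difference between FZ8CRD and untransfected cells was called for SKP1 (0.35), CXXC4 (1.03), DACT1 (0.80), LRP5 (-0.54), PRICKLE1 (-1.13), NKD2 (-0.87), DKK1 (-1.09), APCDD1 (-1.65) and LEF1 (-0.86), with 7.75% of all genes against 0.073% with it. CXXC4 is named here after its values were seen. With the block and all arrays AXIN2 was also called in the difference between the siRNAs (-0.85, block adjusted p = 0.0298), and NKD2 (-0.73, 0.0441) and PRICKLE1 (-0.96, 0.0342) in that between FZ8CRD and untransfected cells. DACT1, a Dishevelled antagonist, rose with Wnt3a in the presence of FZ8CRD (1.46, SE 0.21, adjusted p = 0.000558), a call that a fit of only the arrays compared ended. The changes of the 10 complex genes with Wnt3a in the 4 backgrounds lay between -0.28 (APC) and 0.36 (APC2), and their 95% intervals between -0.61 (APC) and 0.64 (APC2).

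Marker genes moved with Wnt3a too. Of 4 mesenchymal markers, 3 rose in untransfected cells, 2 after the control siRNA, 0 after the CTNNB1 siRNA (0 at an unadjusted p under 0.05 in limma) and 4 with FZ8CRD. The mean of the list read -0.65, -0.79 and -0.86 in untransfected cells and -0.07, 0.48 and 0.01 with Wnt3a, and -1.01, -0.95 and -0.23 with FZ8CRD and 0.79, 0.80 and 0.63 with FZ8CRD and Wnt3a. After the siRNAs the list mean was also higher with Wnt3a on 3 of 3 slides, from -0.87, -0.86 and -1.07 to 0.07, 0.11 and 0.09 after the control siRNA, and from -1.29, -1.17 and -1.23 to -0.81, -0.96 and -1.13 after the CTNNB1 siRNA. The groups overlapped in none of the 4 backgrounds. The biliary mean was lower with Wnt3a without overlap after both siRNAs, reading 2.65, 2.59 and 2.81 and then 2.24, 2.32 and 2.45 after the CTNNB1 siRNA, and the endothelial mean was higher without overlap after the CTNNB1 siRNA. Of the mesenchymal genes, ACTA2 rose in untransfected cells by 0.31, less than the median of all genes moved with spike-in scaling, from 0.01 to -0.38. The hepatocyte genes TTR (2.62) and APOA1 (2.22) and the leukocyte gene CD68 (0.90) rose with Wnt3a in the presence of FZ8CRD. The hepatocyte mean was higher there by 1.05 on 3 of 3 slides. It was lower with Wnt3a by 0.77 in untransfected cells, on 2 of 3 slides. After the control and CTNNB1 siRNAs it was lower by 0.40 and 0.48, on 3 of 3 slides each. The hepatocyte means overlapped in each of the 4 backgrounds. The biliary gene SPP1 fell in untransfected cells by 0.74. Without FZ8CRD replicate 3 the called markers with FZ8CRD were 2 hepatocyte and 4 mesenchymal genes higher, and 1 higher and 1 lower in each of the biliary and leukocyte lists. The part of these markers in the values above was not tested.

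The control siRNA was compared with untransfected cells to show what transfection itself brings. Without Wnt3a, where 22.3% of all genes were called, it raised 1, 3, 2, 0 and 1 genes of the 5 lists and lowered 2, 0, 1, 1 and 1, with medians of 0.11, 0.15, 0.01, 0.05 and 0.01 beside -0.03 over all genes and 0.00 over the 10 genes. With spike-in scaling 2 of the raised phosphatase genes turned, PPP2CA to -0.070 and PPP2R1B to -0.00114, where the median of all genes was -0.31. With Wnt3a (9.04%) it raised 0, 1, 2, 1 and 0 and lowered 0, 0, 0, 2 and 0, with 0 partners and 3 targets at an unadjusted p under 0.05 in limma (22.9% of all genes) and medians of -0.02, 0.16, 0.13, 0.05 and 0.05 (all genes -0.02). CUL1, the cullin of the ligase that BTRC serves, rose without Wnt3a by 0.44 (SE 0.08, limma adjusted p = 0.000581), and its partner RBX1, the RING subunit, by 0.30 (SE 0.07, limma adjusted p = 0.00301). CSNK1D, a CK1 kinase that acts on Dishevelled, rose by 0.48 (SE 0.10, adjusted p = 0.00178) and LEF1 by 0.89 (SE 0.15, adjusted p = 0.000455). All 4 were higher on 3 of 3 slides and no single array ended these calls, while spike-in scaling did, and the rule of an unadjusted p under 0.01 with a fold above 1.5 or below 0.7 ended all but that of LEF1. Of the 22 alternatives and omissions tried, including those of slides, 3 ended the call for each of CUL1, RBX1 and CSNK1D and 2 for LEF1. The co-receptor LRP5 fell by 0.54 with Wnt3a (SE 0.10, limma adjusted p = 0.00594), a call that spike-in scaling and a fit of only the arrays compared ended.

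Hepatocyte markers moved with the same comparison, and DVL2 and AXIN1 are to be read beside them. All 5 fell without Wnt3a (median -1.65) and 2 of 5 with it (median -1.16). The mean of the 5 read 5.48, 4.58 and 3.78 in untransfected cells and 3.06, 3.01 and 2.87 after the control siRNA, and 4.18, 3.19 and 4.15 against 2.87, 2.36 and 2.51 with Wnt3a, without overlap in either medium. ALB ranged from 6.07 to 9.76 over the 24 arrays. Of the other markers, the biliary mean was lower on 3 of 3 slides without overlap in both media, and its gene SPP1 fell in both, and without Wnt3a the mesenchymal gene VIM rose and COL1A2 fell. The leukocyte and endothelial lists had 0 called genes in either medium (1 and 1 without Wnt3a and 2 and 1 with it at an unadjusted p under 0.05 in limma), and their means overlapped between the groups. The part of these markers in the changes of DVL2 and AXIN1 was not tested.

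The CTNNB1 siRNA was compared with the control siRNA to find what depends on β-catenin. Without Wnt3a, where 10.6% of all genes were called, it raised 2, 0, 3, 0 and 0 genes of the 5 lists and lowered 0, 1, 2, 0 and 5, with medians of 0.06, -0.03, 0.18, -0.01 and -0.50 beside -0.03 over all genes and -0.02 over the 10 genes. The Dishevelled list had 2 genes at an unadjusted p under 0.05 in limma (22.7% of all genes). With Wnt3a (10.6%) it raised 2, 0, 1, 0 and 0 and lowered 1, 1, 1, 3 and 6, with medians of 0.05, -0.01, 0.20, -0.09 and -0.71 (all genes -0.01, the 10 genes 0.05). Among the targets RNF43 fell by 0.66 without Wnt3a (SE 0.10, limma adjusted p = 0.000273) and by 1.89 with it (SE 0.10, limma adjusted p = 5.66e-10). TCF7 fell by 1.15 and by 2.08 (SE 0.25 for each) and LEF1 by 0.72 and by 1.05 (SE 0.15 for each).

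AXIN2, the inducible paralog of AXIN1, went the other way from AXIN1 with Wnt3a. After the control siRNA with Wnt3a it read 0.51 to 0.76 and after the CTNNB1 siRNA with Wnt3a -0.20 to -0.03, and it fell by 0.74 (SE 0.10, limma adjusted p = 7.89e-05), lower on 3 of 3 slides. Without Wnt3a AXIN2 read -0.04 to 0.15 and 0.10 to 0.26, with overlap, and was not called. No single array or slide ended the calls of RNF43, TCF7, LEF1 and AXIN2 with Wnt3a, and spike-in scaling ended that of AXIN2 among them, as it did the calls of RNF43, TCF7 and LEF1 without Wnt3a.

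Other partners of the complex changed after the CTNNB1 siRNA. CSNK1G1, a membrane-bound CK1 kinase, rose by 0.59 and by 0.50 without and with Wnt3a (SE 0.11 for each, limma adjusted p = 0.00170 and 0.00524). FBXW11, the paralog of BTRC, rose by 0.50 without Wnt3a (SE 0.09, limma adjusted p = 0.000702). PPP2R5A, a regulatory subunit of PP2A, fell by 0.67 and by 0.76 (SE 0.13 for each, adjusted p = 0.00150 and 0.000446), and CUL1 fell by 0.38 with Wnt3a (SE 0.08, adjusted p = 0.00251). All were in the same direction on 3 of 3 slides, no single array ended these calls, and spike-in scaling ended each of them. Of the 22 alternatives and omissions tried, including those of slides, 2 or 3 ended each call. The rule with a fold limit also ended those of FBXW11, of CUL1 and of CSNK1G1 with Wnt3a.

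**Figure D4:**
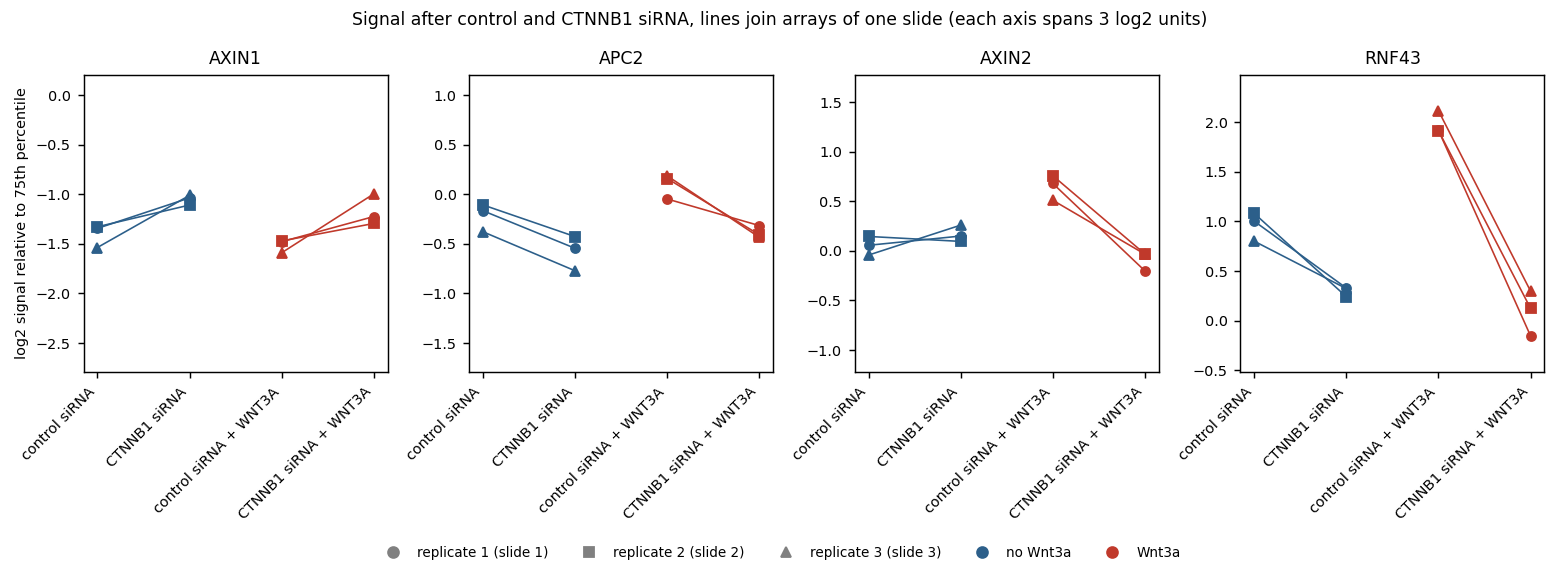
Log2 signal, on the same scale, of AXIN1, APC2, AXIN2 and RNF43 after the control and CTNNB1 siRNAs, without Wnt3a in blue and with it in red. Lines join the arrays of each slide, and every vertical axis spans the same number of log2 units. AXIN1 is higher and APC2 lower on 3 of 3 slides in both media, while AXIN2 is lower on 3 of 3 slides with Wnt3a.

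Of the markers, 3 of 4 mesenchymal genes fell after the CTNNB1 siRNA with Wnt3a, where the list mean read 0.07, 0.11 and 0.09 against -0.81, -0.96 and -1.13, and 1 of 4 without it, where it read -0.87, -0.86 and -1.07 against -1.29, -1.17 and -1.23. The mean was lower on 3 of 3 slides without overlap in both media. The hepatocyte mean without Wnt3a read 3.06, 3.01 and 2.87 after the control siRNA and 3.90, 3.40 and 3.61 after the CTNNB1 siRNA, higher on 3 of 3 slides without overlap, with a list median of 0.68 and 0 genes called (1 at an unadjusted p under 0.05 in limma). With Wnt3a it overlapped, higher on 2 of 3 slides, and 1 gene was called higher. The leukocyte list was lower after the CTNNB1 siRNA on 3 of 3 slides in both media, without overlap, and its gene CD14 fell each time. With Wnt3a the list mean read -0.94, -1.09 and -0.76 against -0.36, -0.61 and -0.43. The biliary gene SPP1 rose in both media and SOX9 fell with Wnt3a, and the biliary mean was higher without overlap without Wnt3a. The endothelial gene PECAM1 fell without Wnt3a, where the endothelial mean read -4.00, -4.23 and -4.01 against -4.41, -4.42 and -4.47. The part of these markers in the values of AXIN1 and APC2 was not tested.

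FZD8_CRD was given to take up Wnt ligands outside the cell. Without Wnt3a, where 41.9% of all genes were called (4851 higher and 5471 lower), it raised 4, 6, 4, 3 and 2 genes of the 5 lists and lowered 3, 0, 1, 2 and 4, with medians of 0.18, 0.35, 0.13, -0.14 and 0.00 beside -0.09 over all genes and 0.06 over the 10 genes. The target median of 0.00 was the value of NKD1, which lay at the floor on all 6 arrays, and over the other 8 targets it was -0.21. NKD1 lay at the floor in 3 further comparisons, where the target medians without it were 0.077 for Wnt3a with FZ8CRD, 0.047 for the control siRNA and -0.55 for the CTNNB1 siRNA, both without Wnt3a. In the same 3 comparisons the Dishevelled medians without NKD1 were 0.021, 0.10 and -0.023. They were -0.18 for FZ8CRD without Wnt3a and 0.065 for Wnt3a after the CTNNB1 siRNA. Without FZ8CRD replicate 3 (40.6%) FZ8CRD raised 4, 6, 3, 3 and 2 and lowered 3, 0, 0, 4 and 3. The list medians were then 0.25, 0.41, 0.20, -0.04 and -0.26. With Wnt3a (37.2%) it raised 3, 5, 5, 1 and 0 and lowered 2, 0, 0, 4 and 4, with medians of -0.04, 0.25, 0.25, 0.09 and -0.30 (all genes -0.08, the 10 genes -0.01). With spike-in scaling the values of 6 raised list genes without Wnt3a turned, to -0.05 for PPP2CA, -0.11 for SKP1, -0.05 for GSKIP, -0.01 for RBX1, -0.09 for CSNK1D and -0.13 for SIAH2. The median of all genes was then -0.46. RNF43 fell by 1.30 and by 1.23 (SE 0.10 for each, limma adjusted p = 9.20e-08 and 2.30e-07) and AXIN2 by 0.60 and by 0.84 (SE 0.10 for each, adjusted p = 0.000118 and 6.69e-06), calls that no array, slide or alternative ended.

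With Wnt3a present, FZ8CRD went with lower LRP5, which fell by 0.82, and NKD2, a Dishevelled antagonist, which fell by 0.98, while DIXDC1, a DIX domain protein that joins Dishevelled, rose by 1.102 and PPP2CB, a catalytic subunit of PP2A, by 0.82. Their limma adjusted p were 8.28e-06, 7.72e-06, 8.14e-06 and 1.84e-06. Only that of PPP2CB was lost with spike-in scaling. FZ8CRD and untransfected cells also differed in hepatocyte markers. All 5 fell without Wnt3a (median -1.81), where the list mean read 2.31, 1.79 and 3.63. With Wnt3a 3 of 5 fell (median -0.73), where the mean read 3.62, 3.63 and 3.65 against 4.18, 3.19 and 4.15. The groups overlapped there, with a difference in mean of -0.21, lower on 2 of 3 slides. Of 4 biliary markers, KRT19 rose and SOX9 and SPP1 fell in both media. The mesenchymal genes VIM and ACTA2 rose in both media and COL1A2 fell without Wnt3a. Without Wnt3a the rises of KRT19 (0.36) and ACTA2 (0.30) were smaller than the move of the median of all genes with spike-in scaling, from -0.09 to -0.46. With Wnt3a the mesenchymal mean read 0.79, 0.80 and 0.63 against -0.07, 0.48 and 0.01, without overlap. The leukocyte gene CD68 fell without Wnt3a. The leukocyte mean was lower with FZ8CRD on 3 of 3 slides without overlap in both media, reading 0.04, -0.29 and -0.50 against -0.79, -1.16 and -0.84, and with Wnt3a -0.23, -0.42 and -0.25 against -0.59, -0.81 and -0.67. The biliary mean was likewise lower on 3 of 3 slides without overlap in both media. Without FZ8CRD replicate 3 all 5 hepatocyte markers were still called lower without Wnt3a (median -1.92), and the calls of KRT19 (adjusted p = 0.0676) and SOX9 (0.145) were lost. The part of these markers in the values of APC, CSNK1A1, DVL1 and DVL2 was not tested. FZ8CRD replicate 3 had the highest hepatocyte mean of its condition, the highest APC on A_33_P3408983 and the lowest on A_23_P70213, and without it 40.6% of all genes were called against untransfected cells, 19.9% in the Wnt3a comparison with FZ8CRD and 7.75% in the difference of the Wnt3a response.

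With the slide as a block the counts of the lists were as high or higher, and so were those of all genes. For Wnt3a they were 4, 1, 3, 4 and 4 in untransfected cells, 2, 0, 1, 2 and 4 after the control siRNA, 0 of each after the CTNNB1 siRNA and 1, 1, 1, 3 and 4 with FZ8CRD. For the control siRNA they were 5, 4, 5, 4 and 2 without Wnt3a and 0, 2, 4, 3 and 1 with it, and for the CTNNB1 siRNA 3, 1, 6, 0 and 5, and 4, 1, 5, 3 and 6. For FZ8CRD they were 8, 6, 6, 7 and 6, and 5, 6, 6, 6 and 5. In the difference between the siRNAs they were 1, 0, 0, 0 and 2, and in that between FZ8CRD and untransfected cells 0, 0, 0, 2 and 0. Of all genes, the block called 2823, 1073, 42 and 3298 for Wnt3a, 7913 and 3754 for the control siRNA, 4095 and 3846 for the CTNNB1 siRNA, 13147 and 11950 for FZ8CRD, and 10 and 149 in the differences, against 1381, 520, 10 and 2044, then 5501 and 2227, 2604 and 2608, 10322 and 9162, and 4 and 18 without it.

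For the genes with the widest ranges, APC2 and AXIN1, the genes with the most similar course over the 8 condition means were looked up among all 24648. For APC2 these were RHBDL2, a rhomboid protease gene (Pearson r 0.99), and the transcripts ENST00000454172 (0.99) and TCONS_00023571 (0.99). For AXIN1 they were FBXL16 (0.95), RNF13 (0.94) and DMD, the dystrophin gene (0.93). The 8 means share their arrays and scaling, and these values are a description.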

How the data were processed

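Cy3-labelled RNA was read on 24 Agilent arrays, and the authors extracted spot intensity with Agilent Feature Extraction (version 10.7.3.1 in the processing notes), which subtracts background within an array. A deposited table holds log2 values relative to the 75th percentile, centred by probe, for 25443 probes, and was used only as an alternative. Here the processed intensity of the 61657 non-control spots was divided by the 75th percentile of the array (643 to 934), floored at -6.13 and taken to log2, with outlier spots left out and repeated spots averaged. Kept were 31067 probes that exceeded background in every replicate of at least 1 condition. Of all 50683 probes, 28174 were named through RefSeq transcripts. The brightest kept probe stood for its gene, giving 24648 genes. These include entries under other transcript names, such as ENST00000454172 and TCONS_00023571. The model had a mean for each of 8 conditions (limma 3.58.1, R 4.3.3, moderated with a trend, two-sided), with Benjamini-Hochberg adjustment over all genes. The procedure was tested on simulated data.

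Replicates of a number correlated above 0.1 in 82 of 84 pairs after removal of condition means, and the number is also the slide, so the slide was tried as a block. Alternatives were quantile normalisation, normexp with an offset of 50, the deposited table, other filters, floors and probe summaries, 7 spike-in probes for scaling, a fit of only the arrays compared, no moderation, another call rule and omission of arrays or slides. List counts and probe fits without FZ8CRD replicate 3 and list medians without genes at the floor were added after the data were seen. List genes were named when called, at most 6 of a list, by lowest adjusted p. Members and lists were chosen with earlier results of these data known.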

Additional observations from a re-analysis of the deposited data

Results flagged for a closer look

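RNF43, a target of β-catenin that encodes a ligase for Frizzled receptors, differed between the siRNA backgrounds in its response to Wnt3a. The difference was -1.23 on the log2 scale (limma adjusted p = 0.00130, block adjusted p = 0.00226), in the same direction on 3 of 3 slides. No array of the 12 ended it (adjusted p 0.000319 to 0.00835), while leaving out either of 2 slides or spike-in scaling did. The cause was not tested.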

How the results depend on the processing

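Of the 10 calls of the complex genes, 9 ended without some single array, 10 without some slide and 9 with spike-in scaling, and 0 with the slide as a block. Of 104 calls of the named list genes, 40 ended without some array, 69 without some slide and 79 ended or reversed with spike-in scaling. With that scaling the median of all genes moved to -0.38 for Wnt3a in untransfected cells, -0.31 and 0.25 for the control siRNA without and with Wnt3a, 0.18, -0.098 and -0.067 for Wnt3a after the control siRNA, after the CTNNB1 siRNA and with FZ8CRD, 0.057 and -0.21 for the CTNNB1 siRNA without and with Wnt3a, -0.46 and -0.15 for FZ8CRD without and with Wnt3a, and -0.28 and 0.31 for the differences. Reversed with it were AXIN2 (-0.029), CSNK1G3 (-0.12) and CUL1 (-0.039) for Wnt3a in untransfected cells, PPP2CA (-0.070) and PPP2R1B (-0.00114) for the control siRNA without Wnt3a, and for FZ8CRD without Wnt3a PPP2CA (-0.045), SKP1 (-0.11), GSKIP (-0.045), DVL2 (-0.098), RBX1 (-0.014), CSNK1D (-0.089) and SIAH2 (-0.13). The cause was not tested.

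The counts of complex genes called moved by over 1.5 times as follows, with smaller moves named for FZ8CRD. For Wnt3a the block gave 2 in untransfected cells and 1 with FZ8CRD. For the control siRNA without Wnt3a the filter on all 24 arrays, the mean of probes, the floor of 1 unit and no moderation gave 2 each, the block 3, and spike-in scaling and the rule with a fold limit 0 each. With Wnt3a the block gave 2, and spike-in scaling, only the arrays compared and the fold rule 0 each. For the CTNNB1 siRNA without Wnt3a normexp, spike-in scaling and the fold rule gave 0 each and the block 2. With Wnt3a normexp and only the arrays compared gave 1 each, and spike-in scaling and the fold rule 0 each. For FZ8CRD without Wnt3a quantile normalisation, only the arrays compared and the fold rule gave 0 each, and no filter, the mean of probes and spike-in scaling 1 each, while the block gave 3. With Wnt3a the deposited table and the fold rule gave 1 each, spike-in scaling 0, and quantile normalisation, normexp, no filter and only the arrays compared 2 each. Leaving out an array or a slide gave 0 to 2, 0 to 0, 0 to 0 and 0 to 3 for Wnt3a in the 4 backgrounds, 0 to 3 and 0 to 1 for the control siRNA, 0 to 0 and 0 to 1 for the CTNNB1 siRNA, 0 to 4 and 0 to 3 for FZ8CRD, and 0 to 0 and 0 to 2 for the differences. The calls among all genes moved with the setting too, so these counts are not results about the complex genes alone. With the block they rose from 5501 to 7913 for the control siRNA without Wnt3a. Without FZ8CRD replicate 3 they rose from 8.29% to 19.9% for Wnt3a with FZ8CRD, and from 0.073% to 7.75% in the difference between FZ8CRD and untransfected cells. Signal over background was not the limit for the 12 probes, except that A_23_P70213 of APC was dim.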
